A study of Mus musculus with 32 samples.

Results

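The nuclear genes for the subunits of oxidative phosphorylation were followed in pleural and subcutaneous mesotheliomas of the mouse. A gene was included when its symbol began as those of the NADH dehydrogenase (Nduf), succinate dehydrogenase (Sdh), cytochrome bc1 (Uqcr), cytochrome c oxidase (Cox4 to Cox8) and ATP synthase (Atp5) subunits do, pseudogenes apart, and when its counts summed to at least 10 over all tumors. This gave 73 of 39676 genes, of which 31 belonged by name to complex I, 4 to complex II, 8 to complex III, 14 to complex IV and 16 to complex V. No gene of the mitochondrial genome (symbols starting with mt-) had a row in the table used here, so that a comparison of nuclear with mitochondrial genes was not analysed here, and 11 further nuclear genes with such symbols (among them Cox8a, Ndufa4l2, Ndufs4 and Ndufs8) were not analysed here either. Of the 73 genes, Ndufa4 carries a complex I name but is now regarded as a subunit of complex IV, and Atp5sl resembles a complex V gene in name only.

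AB1 and AE17 are mouse mesothelioma cell lines. Untreated female mice, 8 to 10 weeks old, received 500000 AB1 cells (BALB/c mice) or 1000000 AE17 cells (C57BL/6 mice) either into the pleural cavity (intrapleural, IPL) or under the skin (subcutaneous, SC). Whole tumors were taken at day 10 from 8 mice in each of the 4 groups, lungs and neighboring tissue being trimmed away before RNA was extracted, and each mouse gave 1 library of between 15432258 and 20649645 counted reads. Every tumor was therefore a mixture of cancer cells, host cells and any remaining tissue of the site, and the 6 mesothelial marker genes with a row summed to between 76.2 and 283 CPM. Cell line, mouse strain and number of cells changed together between AB1 and AE17, and so did the sequencing lane, since no lane held both models at the same site. All 8 AB1 IPL libraries shared lane 3 with AB1 SC replicates 1 and 2, and AE17 IPL replicates 6 to 8 shared lane 1 with all AE17 SC libraries. AB1 IPL replicates 2 and 4 were the libraries least like the others of their group (median correlation of log2 levels 0.933 and 0.935), and AE17 IPL replicate 5 stood apart by its fat and heart genes (Ucp1, the uncoupling protein of brown fat, at 86.8 CPM against a median of 0.0588 CPM in its group).

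Oxidative phosphorylation moves electrons from NADH (complex I) and succinate (complex II) through complex III to complex IV, which passes them to oxygen, and complex V makes ATP from the proton gradient that complexes I, III and IV build up. Most subunits are made from nuclear genes in every tissue, but complex IV has alternative subunits. Cox6a2, Cox7a1 and Cox8b are the forms of heart and skeletal muscle, while Cox6a1 and Cox7a2 are the forms of most other cells. The muscle forms are not all confined to muscle (Cox8b, for one, is abundant in brown fat too). Muscle and brown fat are among the tissues richest in mitochondria, whereas tumors vary widely in how much they use this pathway.

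The promoters of the muscle forms and of their general counterparts are shown because the site comparison below separated these genes. RefSeq (GRCm38.p6) gave a promoter for 59 of the 73 genes by symbol, and none was used for the others, Cox6a2 and Cox4i1 among them. The 200 bases before the RefSeq start of each gene (which for Cox7a1, Cox6a1 and Cox7a2 lies some bases inside the gene as GENCODE M21, the source of the gene coordinates below, draws it) are written 5′ to 3′ on the strand of the gene, at chr7:140900447-140900646 (minus strand) for Cox8b, chr7:30183971-30184170 (plus strand) for Cox7a1, chr5:115348959-115349158 (minus strand) for Cox6a1 and chr9:79759854-79760053 (minus strand) for Cox7a2. Capitals mark the short motifs listed after the sequences.
Cox8b: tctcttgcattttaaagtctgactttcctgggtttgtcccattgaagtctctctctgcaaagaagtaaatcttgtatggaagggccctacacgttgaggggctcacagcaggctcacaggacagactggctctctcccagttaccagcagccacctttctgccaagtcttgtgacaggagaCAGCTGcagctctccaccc
Cox7a1: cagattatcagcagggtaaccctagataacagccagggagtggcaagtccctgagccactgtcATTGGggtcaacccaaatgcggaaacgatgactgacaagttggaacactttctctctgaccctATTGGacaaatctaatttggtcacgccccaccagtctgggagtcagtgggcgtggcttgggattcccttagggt
Cox6a1: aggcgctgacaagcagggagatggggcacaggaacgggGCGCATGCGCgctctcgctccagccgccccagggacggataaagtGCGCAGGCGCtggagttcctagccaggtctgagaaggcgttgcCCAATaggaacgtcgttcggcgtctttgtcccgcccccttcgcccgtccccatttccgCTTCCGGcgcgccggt
Cox7a2: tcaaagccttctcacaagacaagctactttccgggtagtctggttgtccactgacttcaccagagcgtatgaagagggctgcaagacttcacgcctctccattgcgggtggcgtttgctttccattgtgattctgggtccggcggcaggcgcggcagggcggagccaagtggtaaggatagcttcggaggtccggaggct

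In the windows shown, Cox8b and Cox7a1 had fewer CpG dinucleotides and less G and C than Cox6a1 and Cox7a2. The Cox8b window held 1 CpG dinucleotide and the Cox7a1 window 4, against 23 in Cox6a1 and 12 in Cox7a2, and the G and C content was 51.5%, 52.0%, 67.0% and 57.5%. The motifs, searched on both strands, were the core of the NRF1 motif, an ETS motif as bound by GABP (CCGGAAG), a YY1 motif (AAGATGG), an estrogen-related receptor motif (AAGGTCA), the E-box CAGCTG of muscle factors, the MEF2 motif, the CCAAT box and the TATA box (TATAAA). Over the 250 bases before the start, the NRF1 core was found in 12 of the 59 promoters (20.3%, against 5.09% of 27025 promoters of all genes) and the ETS motif in 11 (18.6% against 7.05%). The estrogen-related receptor motif was found in 8.47% against 4.05%, the CCAAT box in 42.4% against 34.5%, the E-box in 10.2% against 12.8%, the TATA box in 8.47% against 13% and the MEF2 motif in 1.69% against 3.23%, and the YY1 motif was in none against 4.53%. These are matches of letters in a window and no measure of binding, and motif matches also follow base composition, the median G and C content being 56.4% in the 59 promoters and 52.0% in all.

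To ask whether tumors in the pleura differed from those under the skin, IPL was compared with SC within each model. In AB1, the clearest rise was in the muscle forms of complex IV. Levels are given as CPM (gene reads relative to the TMM-adjusted total of each library). Cox8b (chromosome 7, 140898945 to 140900446, minus strand) had a median of 6.13 CPM in AB1 IPL tumors (0.808 to 21.3) and 0.545 CPM in AB1 SC tumors (0 to 1.11), with no count in 2 SC mice. In 7 of 8 IPL mice it was above every SC mouse. Its log2 fold change was 4.00 (SE 0.72, n = 8 against 8, edgeR adjusted p = 0.000793). Cox6a2 (chromosome 7, 128205435 to 128206387, minus strand) had a median of 18.2 CPM in AB1 IPL tumors (1.51 to 47.1) and 2.53 CPM in AB1 SC tumors (1.150 to 4.03), and again 7 of 8 IPL mice were above every SC mouse. Its log2 fold change was 2.97 (SE 0.58, adjusted p = 0.00144). Cox7a1 (chromosome 7, 30184144 to 30186078, plus strand) had a median of 2.46 CPM in AB1 IPL tumors (1.75 to 5.43) and 1.27 CPM in AB1 SC tumors (0.727 to 1.58), and the groups did not overlap. Its log2 fold change was 1.34 (SE 0.27, adjusted p = 0.00178).

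The general forms of the same subunits gave no such difference in AB1. Cox6a1 had a log2 fold change of 0.09 (SE 0.0841, adjusted p = 0.446) and Cox7a2 one of -0.02 (SE 0.0865, adjusted p = 0.917). Per kilobase of exon, Cox6a2 made up a median of 13.8% of the Cox6a level in AB1 IPL tumors (0.941% to 27.8%) and 2.07% in AB1 SC tumors (0.951% to 3.18%). Cox7a1 made up a median of 4.40% of the sum of Cox7a1 and Cox7a2 in AB1 IPL tumors (2.07% to 7.09%) and 1.95% in AB1 SC tumors (1.11% to 2.43%). The general forms thus stayed the larger part in each of these tumors. Cox4i1, the general form of subunit 4, had a log2 fold change of 0.09 (SE 0.0775, adjusted p = 0.424) and Cox6b1 one of 0.12 (SE 0.0771, adjusted p = 0.293). Their alternative forms, Cox4i2 (prominent in lung) and Cox6b2 (of testis), had at most 17 and 18 counts in any AB1 tumor and were too low to be tested there.

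In AE17, none of the 3 muscle forms passed the test. Cox8b had a median of 0.841 CPM in AE17 IPL tumors (0 to 10.9) and 1.052 CPM in AE17 SC tumors (0 to 2.29), with a log2 fold change of 0.90 (SE 0.923, adjusted p = 0.584). Cox6a2 ranged from 0.407 to 9.86 CPM against 0.712 to 6.29 CPM, with a log2 fold change of 0.23 (SE 0.584, adjusted p = 0.844). Cox7a1 ranged from 0.407 to 4.81 CPM against 0.594 to 2.35 CPM, with a log2 fold change of 0.16 (SE 0.46, adjusted p = 0.867). The groups overlapped for each of them, and the direction of each turned under some alternatives, which ranged from -0.73 to 1.18 for Cox8b, from -0.34 to 0.40 for Cox6a2 and from -0.56 to 0.38 for Cox7a1. A single mouse, AE17 IPL replicate 5, gave the highest value of all 3 genes in its group.

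**Figure D1:**
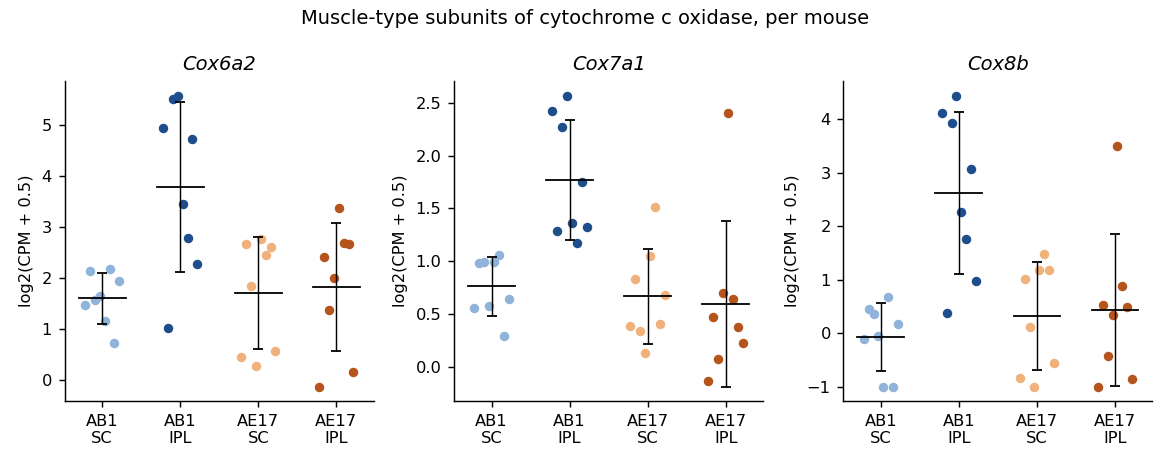
Level of Cox6a2, Cox7a1 and Cox8b in each of the 32 mice as log2(CPM + 0.5), by group, with points for mice, horizontal lines for the mean and bars for 1 SD. AB1 IPL tumors lay highest for each gene, 7 of 8 mice being above every AB1 SC mouse for Cox6a2 and Cox8b and 8 of 8 for Cox7a1, and the single high AE17 IPL point of Cox7a1 and Cox8b is replicate 5.

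Whether the site mattered more in AB1 than in AE17 was tested in 1 fit of all 32 mice. Cox6a2 rose more in AB1 than in AE17, by 2.76 on the log2 scale (SE 0.844, adjusted p = 0.0196), whereas Cox8b (3.12, SE 1.22, adjusted p = 0.0682) and Cox7a1 (1.196, SE 0.54, adjusted p = 0.118) did not pass.

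Skeletal muscle markers moved with these subunits. Of 16 skeletal muscle genes tested (the troponins, fast myosins and creatine kinase Ckm among them), 15 were higher in AB1 IPL than in AB1 SC tumors (median log2 fold change 3.17) and 0 of 16 passed in AE17 (median -0.66), against 12.3% and 2.6% of all genes. Their summed level was between 132 and 6435 CPM in AB1 IPL tumors (median 3204), 63.5 and 669.7 CPM in AB1 SC tumors (median 408), 61.2 and 1131 CPM in AE17 IPL tumors (median 736) and 50.2 and 1745 CPM in AE17 SC tumors (median 808). No gene of the list was at 0 throughout a group. The AB1 IPL mouse with the lowest muscle sum, replicate 2, also had the lowest Cox6a2 and Cox8b of its group. The summed level of 10 cardiac genes was between 8.08 and 103 CPM in AB1 IPL tumors (median 56.0) and 8.23 and 16.9 CPM in AB1 SC tumors (median 10.0), 7 of 8 IPL mice being above every SC mouse, and of 5 cardiac genes tested 2 were higher and 2 lower. In AE17 the cardiac sum was between 15.9 and 249.6 CPM in IPL tumors (median 41.8) and 11.8 and 22.2 CPM in SC tumors (median 18.3), 6 of 8 IPL mice being above every SC mouse. Of 5 cardiac genes tested in AE17, 2 were higher and 0 lower (all genes 2.6% and 3.13%). Of 6 adipocyte genes tested in AB1, 4 were higher in IPL tumors, with summed levels of 74.2 to 550.1 CPM against 45.9 to 102 CPM. In AE17, 0 of 7 passed, but 6 had a log2 fold change above 0 (median 2.00). The AE17 sums were 56.7 to 1464 CPM in IPL tumors (median 70.5) and 45.1 to 249.5 CPM in SC tumors (median 115). AE17 IPL replicate 5 had the highest adipocyte sum of all mice (1464 CPM) and the highest cardiac sum (249.6 CPM). With scores of muscle, heart, fat and lung genes as covariates, the AB1 difference of Cox8b was 0.61 (adjusted p = 0.43), that of Cox7a1 0.21 (adjusted p = 0.704) and that of Cox6a2 -0.32 (adjusted p = 0.592). The summed lung epithelium genes were at 10.8 to 31.2 CPM in AB1 IPL tumors (median 15.1) and 18.8 to 30.9 CPM in AB1 SC tumors (median 25.9). Of 10 leukocyte genes tested, 3 were higher and 6 lower in AB1 IPL tumors (all genes 12.3% and 10.7%), and the part of leukocytes in these results was not tested. In whole tumors, fewer or more cells of a type and less or more RNA per cell cannot be told apart. Within lane 3, where 8 IPL libraries met 2 SC libraries, the log2 fold changes were 3.68 for Cox8b, 2.73 for Cox6a2 and 1.30 for Cox7a1, with adjusted p of 0.289, 0.396 and 0.327.

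**Figure D2:**
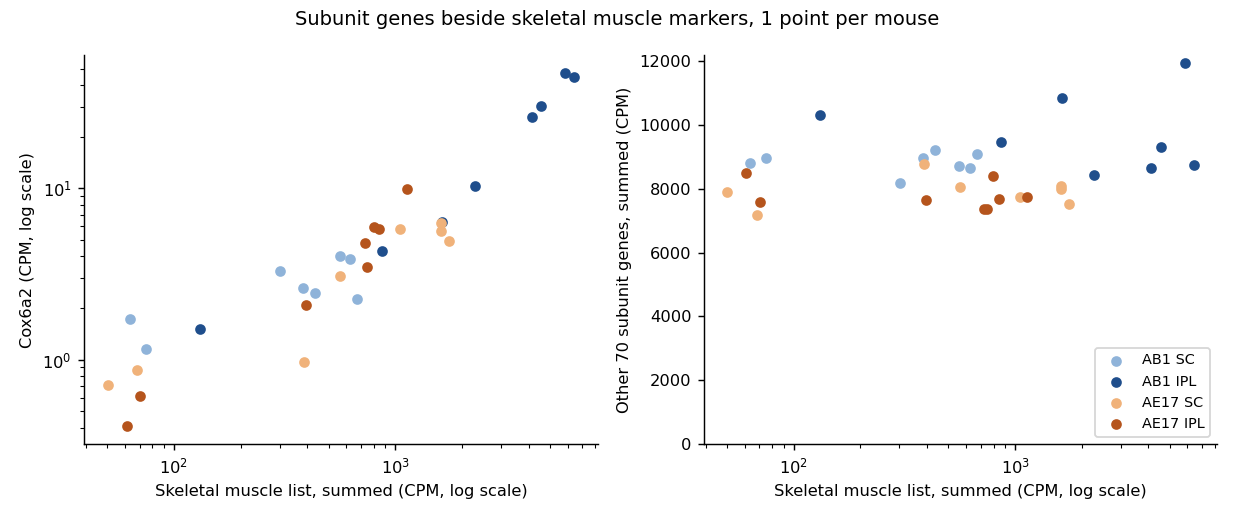
Level of Cox6a2 (left, CPM on a log scale) and summed level of the 70 subunit genes other than Cox6a2, Cox7a1 and Cox8b (right, CPM) against the summed level of the skeletal muscle list (CPM on a log scale), with 1 point per mouse colored by group. Cox6a2 lay along the muscle sum in all 4 groups. The AB1 IPL mouse with the lowest muscle sum (replicate 2, 132 CPM) had one of the higher sums of the other subunit genes (10302 CPM). That library was also the least like the others of its group (median correlation 0.933). Replicate 4, with the highest sum of the other subunit genes (11936 CPM), had the second highest muscle sum of the group (5848 CPM).

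Among the other subunits of AB1 tumors, few passed the test. In all, 7 of 71 tested were higher in AB1 IPL tumors (9.86%) and 0 lower, against 12.3% of all 14645 genes tested called higher and 10.7% called lower, and 22 had an unadjusted p under 0.05. In this fit the share called was no larger than among all genes, and it was also smaller in most of the 29 alternatives. It was 7.14% with at least 10 counts in every library (against 11.1%) and 5.63% with the replicate block (against 7.37%). It was also below that of all genes in every fit that left out an AB1 SC mouse. In the remaining alternatives, among them those that follow, it was larger, so that it depended on the fit and on single mice. DESeq2, which was run without the filter on low counts, called 13 of 73 (17.8%, against 9.23% of a larger set of 28091 genes). Of the subunits, 18.3% were higher with total counts (against 13.7%), 23.9% with length offsets (17 of 71, against 13.5%), 23.3% without AB1 IPL replicate 5 (17 of 73, against 13.1%) and 16.4% without AB1 IPL replicate 8 (12 of 73, against 13.6%). Beside the muscle forms they were Ndufb2, Ndufa13 and Ndufa4 of the complex I names and Atp5k, the e subunit of ATP synthase, by small amounts. Ndufb2, an accessory subunit of the membrane arm, had a median of 24.98 CPM in AB1 IPL tumors (21.1 to 28.9) and 19.3 CPM in AB1 SC tumors (17.01 to 21.3), so that the ranges overlapped at their edges, with a log2 fold change of 0.33 (SE 0.0753, adjusted p = 0.00419). Ndufa4 ranged from 129 to 202 CPM against 116 to 145 CPM, with a log2 fold change of 0.27 (SE 0.0759, adjusted p = 0.0159). Ndufa13 (GRIM-19) had 0.24 (SE 0.0777, adjusted p = 0.0302) and Atp5k 0.19 (SE 0.0668, adjusted p = 0.0444). Over 29 alternatives the call was kept in 26 for Ndufb2, 25 for Ndufa4, 17 for Ndufa13 (adjusted p up to 0.643) and 12 for Atp5k (adjusted p up to 0.775). No gene of complexes II and III passed, and the 3 c-subunit genes Atp5g1, Atp5g2 and Atp5g3 had log2 fold changes of 0.14, 0.03 and 0.00. No subunit gene passed with the lane as a covariate, within lane 3 and with the tissue scores as covariates. Few of all genes were called higher in these fits either (0.731%, 0.0625% and 1.03%, against 12.3% in the main fit).

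In AB1, 66 of 71 subunits had a log2 fold change above 0 (93%, against 49.6% of all genes), most of them without passing the test. The median over the 71 was 0.13, against a median of -0.00225 over all genes. All were measured in the same mice, so the number above 0 carries no test here. By complex the medians were 0.14 for complex I, 0.15 for complex II, 0.13 for complex III, 0.09 for complex IV and 0.13 for complex V. The summed level of all 73 genes was 8452 to 12010 CPM in AB1 IPL tumors (mean 9740 ± 1227, SD, n = 8) and 8179 to 9226 CPM in AB1 SC tumors (mean 8829 ± 321.5, SD, n = 8), and it was above every SC mouse in 5 of 8 IPL mice. Replicates 4, 6 and 2 had the highest sums, and of these replicate 2 had the lowest muscle sum of the group and replicate 4 the second highest. Without AB1 IPL replicate 4 the median was 0.05 with 56 of 73 above 0 (all genes -0.03), and without replicates 2 and 4 it was 0.04 with 54 of 73 above 0 (all genes -0.00602). The median was 0.14 with the lane as a covariate (64 of 71 above 0), 0.14 with the tissue scores (66 of 71) and 0.09 within lane 3 (60 of 73, all genes -0.03). Ndufc2, a complex I subunit named here after its value was seen, was lower without replicates 2 and 4 (-0.23, adjusted p = 0.00231).

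In AE17, 0 of 72 tested genes were higher and 1 lower (1.39%), against 2.6% of 14668 genes called higher and 3.13% lower, with 8 at an unadjusted p under 0.05. DESeq2 called 2 lower. The gene was Ndufb10, an accessory subunit of complex I, at 32.3 to 41.2 CPM in AE17 IPL tumors (median 36.2) and 38.5 to 52.1 CPM in AE17 SC tumors (median 43.9). The ranges overlapped, and the log2 fold change was -0.23 (SE 0.0657, adjusted p = 0.0491), with an adjusted p of 0.269 within lane 1. The call was kept in 7 of 28 alternatives (adjusted p up to 0.768). The genes were spread about 0, with 33 above it (45.8%, against 51% of all genes) and 39 below and a median of -0.01. The count moved with single mice, being 1 higher and 5 lower without AE17 SC replicate 1 and 3 higher and 1 lower without AE17 SC replicate 3. The calls over all genes rose in the same fits, to 1026 higher and 1040 lower of 14776 genes and to 746 higher and 800 lower of 14781 genes.

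**Figure D3:**
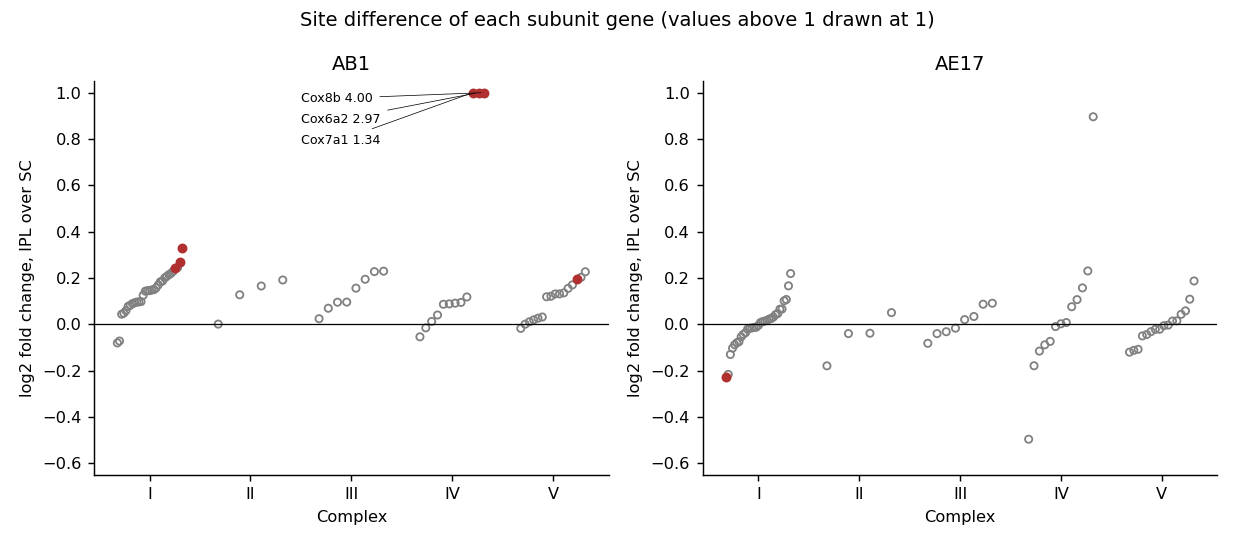
Log2 fold change of IPL over SC tumors for each tested subunit gene (vertical axis) by complex (horizontal axis), in AB1 (left, 71 genes) and AE17 (right, 72 genes), with red points for genes past an edgeR adjusted p of 0.05 and values above 1 drawn at 1. In AB1 most genes lay slightly above 0 and 3 muscle forms of complex IV far above it, and in AE17 the genes lay around 0.

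Summed by complex, geometric means in AB1 IPL tumors were 112% of those in AB1 SC tumors for complex I, 110% for complex II, 112% for complex III, 107% for complex IV and 109% for complex V. In AE17 the values were 98.8%, 96.6%, 99.9%, 97.2% and 98.9%. Mice differed far more within AB1 IPL than within AB1 SC tumors, with SDs of the log2 sums from 0.15 to 0.19 against 0.03 to 0.08. For complex IV without the muscle forms the AB1 value was 105%, and only 3 of 8 IPL mice were above every SC mouse. Sums over genes chosen by name carry no test here.

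**Figure D4:**
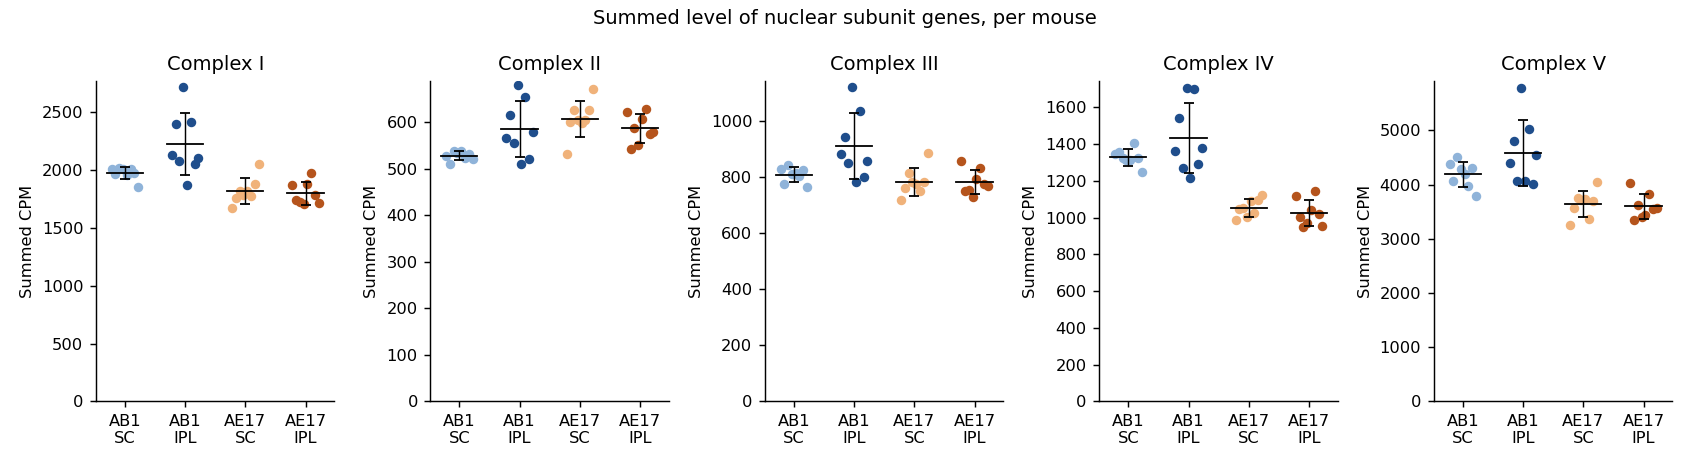
Summed CPM of the nuclear subunit genes of complexes I to V in each mouse by group, with points for mice, lines for the mean and bars for 1 SD. AB1 IPL tumors spread widely upward in each complex, complex IV was lower in all AE17 than in all AB1 tumors, and complex II showed no such step between the models.

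The site effect differed between the models for 9 of 73 genes, each of them more positive in AB1 (12.3%), and for 0 in the other direction, against 11.9% and 8.62% of 15681 genes. In this fit the share was close to that of all genes. It was 15.1% with DESeq2 (11 genes, against 7.02% of a larger set of 30148 genes), 20.5% with length offsets (15 genes, against 12.4% of all genes), 21.9% without AB1 IPL replicate 5 (16 genes, against 12.4%), 19.2% without AB1 IPL replicate 7 (14 genes, against 12.3%) and 19.2% without AE17 SC replicate 1 (14 genes, against 13.2%), and lower than among all genes without some other mice. Beside Cox6a2 these were Ndufb2 (difference of log2 fold changes 0.45, SE 0.0993, adjusted p = 0.00211), Ndufb10 (0.43, SE 0.0995, adjusted p = 0.00298), Ndufv1 (0.33, SE 0.0988, adjusted p = 0.0156), Sdhb (0.36, SE 0.101, adjusted p = 0.0113), Sdha (0.19, SE 0.067, adjusted p = 0.0473), Atp5c1 (0.26), Cox7c (0.24) and Atp5k (0.24). Over 44 alternatives, leaving out each mouse included, the call was kept in 15 for Sdha, 22 for Cox7c and 22 for Atp5k, against 38 to 43 for the other members named here apart from Cox6a2 (40 of 43). Without the libraries that stood apart, Ndufc2 was called in the other direction (-0.20, adjusted p = 0.0425). Ndufv1 carries the NADH binding site of complex I, Sdha and Sdhb are the catalytic subunits of succinate dehydrogenase, and Atp5c1 is the central stalk of ATP synthase. For Sdhb the IPL over SC value was 0.17 in AB1 (adjusted p = 0.127) and -0.18 in AE17 (adjusted p = 0.126), and Ndufb10 had 0.18 in AB1 and -0.23 in AE17. Over the 73 genes, 66 differences were above 0 (90.4%, against 52% of all genes) and the median was 0.16, against 0.02 over all genes. With the lane as a covariate 0 of the 73 genes passed, and with the tissue scores only Ndufb2 did (0.33, adjusted p = 0.0395). Of all genes, 0.376% were called higher with the lane and 2.75% with the tissue scores, against 11.9% in the main fit.

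AB1 and AE17 tumors were then compared within each site. The mouse strain, the cell line, the inoculum and the lane cannot be told apart in these comparisons. Under the skin, 30 of 73 genes were higher in AB1 (41.1%) and 13 lower (17.8%), against 31.2% and 32.5% of 14718 genes. In the pleura, 46 of 72 were higher in AB1 (63.9%) and 4 lower (5.56%), against 30.5% and 28.6% of 14886 genes. The medians were 0.06 under the skin and 0.31 in the pleura, and those of all genes -0.00265 and 0.02. With each library corrected for transcript length the split was 25 higher and 18 lower under the skin and 38 higher and 9 lower in the pleura. Summed by complex, AB1 SC tumors had 126% of the AE17 SC level for complex IV, 115% for complex V, 109% for complex I, 103% for complex III and 87.0% for complex II, and the values in the pleura were 139%, 127%, 123%, 116% and 99.4%.

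Complex II was split. Sdha (chromosome 13, 74322254 to 74350280, minus strand), the flavoprotein that oxidizes succinate, ranged from 180.4 to 187 CPM in AB1 SC tumors (median 184) and from 237 to 313 CPM in AE17 SC tumors (median 276). In the pleura it ranged from 176 to 226 CPM in AB1 (median 208) and from 244 to 294 CPM in AE17 (median 268). AB1 was below AE17 in every mouse at both sites, with log2 differences of -0.61 (SE 0.0432, adjusted p = 1.14e-09) and -0.40 (SE 0.0566, adjusted p = 1.06e-05). Sdhb (chromosome 4, 140961203 to 140979193, plus strand), the iron-sulfur subunit that takes up the electrons, went the other way. It ranged from 110 to 119 CPM in AB1 SC tumors and 65.1 to 93.4 CPM in AE17 SC tumors (medians 116 and 83.1), and from 112 to 166 CPM and 63.3 to 81.7 CPM in the pleura (medians 125 and 70.5). The log2 differences were 0.47 (SE 0.0553, adjusted p = 8.64e-07) and 0.86 (SE 0.0885, adjusted p = 2.03e-07). The ratio of Sdha to Sdhb reads was 1.55 to 1.65 in AB1 SC, 1.24 to 1.76 in AB1 IPL, 3.16 to 3.64 in AE17 SC and 3.40 to 4.07 in AE17 IPL tumors, without overlap between the models. The membrane anchors differed by less: Sdhc did not pass at either site (-0.04, adjusted p = 0.362, and 0.14, adjusted p = 0.111), and Sdhd was lower in AB1 under the skin (-0.21, SE 0.0401, adjusted p = 0.00016) with -0.13 in the pleura (adjusted p = 0.193). Sdhaf3, an assembly factor of this complex outside the 73 genes, was lower in AB1 by more, with -1.57 (SE 0.137, adjusted p = 1.89e-08) and -1.37 (SE 0.142, adjusted p = 2.24e-07).

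In complex V, 5 of 16 genes were higher in AB1 and 3 lower under the skin (all genes 31.2% and 32.5%), and 9 were higher and 2 lower in the pleura (all genes 30.5% and 28.6%). The share higher under the skin was that of all genes. Of the 3 genes for the c subunit, Atp5g3 had the largest log2 difference at both sites. Atp5g1, Atp5g2 and Atp5g3 encode the same mature c subunit, which forms the rotating ring, with different import sequences. Atp5g3 (chromosome 2, 73908447 to 73911326, minus strand) ranged from 362 to 488 CPM in AB1 SC tumors (median 434), 352 to 571 CPM in AB1 IPL tumors (median 434), 192 to 233 CPM in AE17 SC tumors (median 207) and 174 to 232 CPM in AE17 IPL tumors (median 193). Every AB1 mouse was above every AE17 mouse, with log2 differences of 1.03 under the skin (SE 0.056, adjusted p = 3.41e-11) and 1.19 in the pleura (SE 0.0924, adjusted p = 5.88e-09). Atp5g2 had 0.01 (SE 0.0414, adjusted p = 0.774) and 0.03 (SE 0.0839, adjusted p = 0.765), and Atp5g1 0.06 (SE 0.0655, adjusted p = 0.401) and 0.36 (SE 0.0867, adjusted p = 0.00167). Atp5g3 took a median of 55.8% of the reads of the 3 genes in AB1 SC and 54.6% in AB1 IPL tumors, against 38.5% in AE17 SC and 36.5% in AE17 IPL tumors. Atp5j2, the f subunit of the membrane part, was higher in AB1 (0.67, SE 0.04, adjusted p = 1.34e-10, and 0.94, SE 0.11, adjusted p = 1.08e-06). Atp5sl was lower (-0.79, SE 0.0773, adjusted p = 8.18e-08, and -0.92, SE 0.0867, adjusted p = 6.84e-08), at 7.95 to 11.2 CPM in AB1 and 13.4 to 19.5 CPM in AE17 tumors. Reads of 50 bases from near-identical copies of these genes may have been split in counting, which was not tested.

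**Figure D5:**
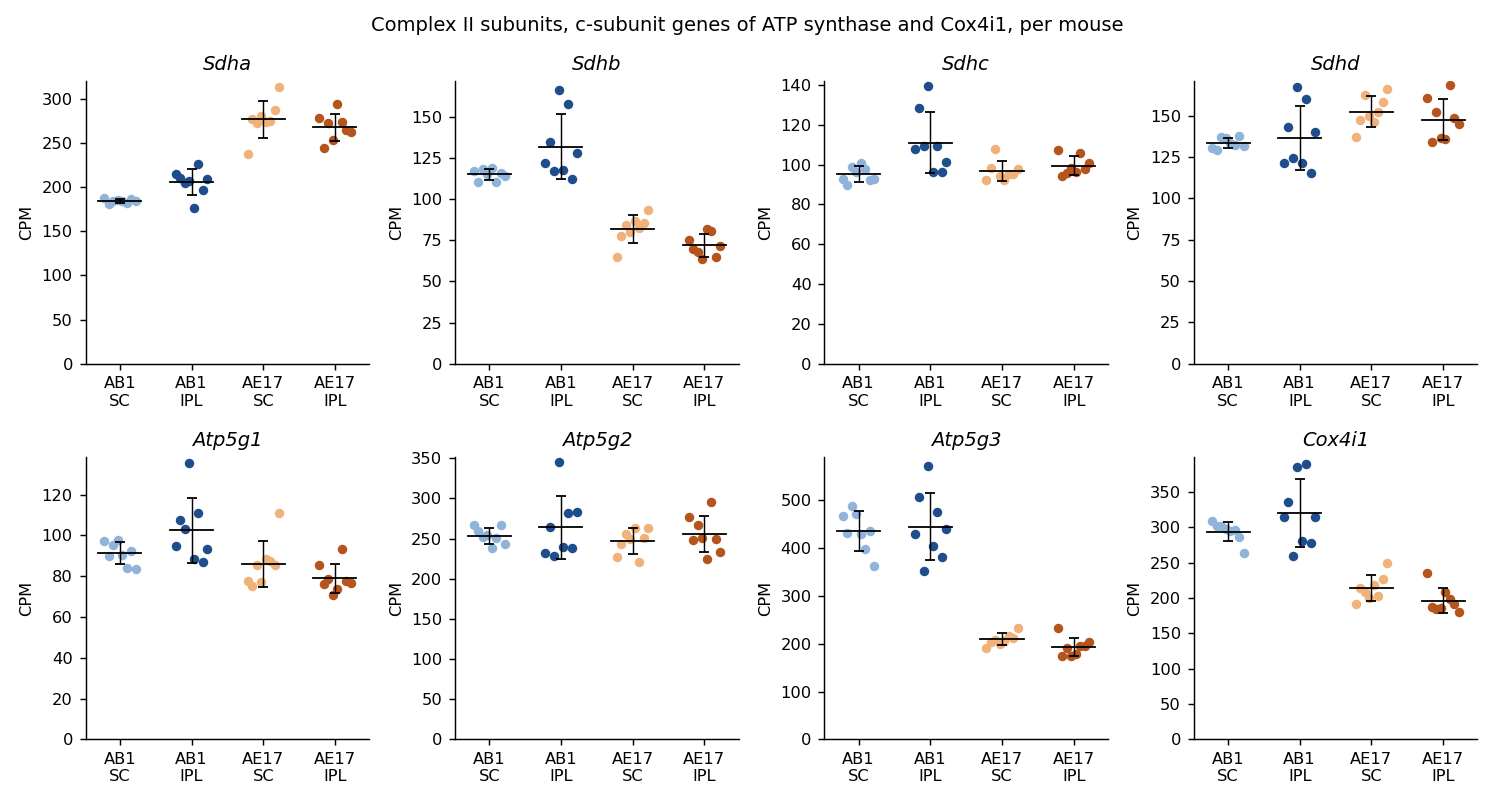
Level in CPM of the complex II genes Sdha, Sdhb, Sdhc and Sdhd, the c-subunit genes Atp5g1, Atp5g2 and Atp5g3, and Cox4i1 in each mouse by group, with points for mice, lines for the mean and bars for 1 SD. Sdha was lower and Sdhb, Atp5g3 and Cox4i1 higher in every AB1 mouse than in every AE17 mouse, whereas Sdhc and Atp5g2 lay at similar heights in all groups.

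In complex IV, 7 of 14 genes were higher in AB1 and 1 lower under the skin (all genes 31.2% and 32.5%), and 11 of 13 were higher and 0 lower in the pleura (all genes 30.5% and 28.6%). Cox4i1, the regulatory subunit 4, ranged from 264 to 309 CPM in AB1 SC and 191 to 250.04 CPM in AE17 SC tumors, and from 260.0 to 389 CPM in AB1 IPL and 179.7 to 235 CPM in AE17 IPL tumors. The groups did not overlap at either site, with log2 differences of 0.44 (SE 0.0492, adjusted p = 5.09e-07) and 0.69 (SE 0.0873, adjusted p = 2.62e-06). Cox6c had 0.71 at both sites (SE 0.0732, adjusted p = 1.64e-07, and SE 0.0812, adjusted p = 7.57e-07). Cox6b1 had 0.31 and 0.37 and Cox7a2 had 0.29 and 0.31, each past the threshold. Cox6a1 did not pass, with -0.07 (adjusted p = 0.11) and 0.07 (adjusted p = 0.537), but was lower in AB1 under the skin with length offsets (-0.18, adjusted p = 0.000715). Cox4i2 was lower in AB1 under the skin (-0.71, SE 0.285, adjusted p = 0.0384), at 0.292 to 0.969 CPM against 0.503 to 1.33 CPM, and had -0.16 in the pleura (adjusted p = 0.59). The muscle forms did not pass between the models under the skin (Cox8b -0.94, Cox6a2 -0.42 and Cox7a1 0.05) and were higher in AB1 in the pleura (Cox6a2 2.36, adjusted p = 0.00884, Cox7a1 1.28, adjusted p = 0.0229, and Cox8b 2.20, adjusted p = 0.0499), where 13 of 16 skeletal muscle genes were higher in AB1 as well (all genes 30.5%). At the same threshold of 0.05, Cox8b in the pleura did not pass without a filter, with GC offsets or with length offsets (adjusted p up to 0.097), Cox7a1 in the pleura did not pass with length offsets (adjusted p = 0.0563), Cox6a2 in the pleura did not pass with the replicate block (2.15, adjusted p = 0.0663), and Cox4i2 under the skin did not pass with DESeq2, total counts or no filter (adjusted p up to 0.0619).

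In complex I the genes went both ways under the skin and mostly up in the pleura. Under the skin 14 of 31 were higher in AB1 and 5 lower (all genes 31.2% and 32.5%), and in the pleura 20 higher and 1 lower (all genes 30.5% and 28.6%). Ndufs3, a subunit of the matrix arm, was higher in AB1 under the skin (0.42, SE 0.0376, adjusted p = 2.86e-08), at 81.3 to 91.6 CPM against 59.1 to 66.9 CPM, and the groups did not overlap. Ndufb4 and Ndufs6, accessory subunits, were lower in AB1 SC tumors (-0.60, SE 0.0582, adjusted p = 7.53e-08, and -0.41, SE 0.0516, adjusted p = 2.01e-06). In the pleura the largest differences were Ndufa4 (0.71, SE 0.0858, adjusted p = 1.58e-06), Ndufs7, which carries an iron-sulfur cluster (0.63, SE 0.0935, adjusted p = 1.63e-05) and Ndufv1 (0.55, SE 0.0715, adjusted p = 3.38e-06). Ndufb4 was the gene of this complex that was lower there (-0.35, adjusted p = 0.00331). In complex III, Uqcrq (0.38, SE 0.0536, adjusted p = 6.73e-06, and 0.57, SE 0.108, adjusted p = 0.000225) and Uqcr11 (0.27 and 0.46) were higher in AB1 at both sites. Uqcrh, the hinge protein, was lower under the skin (-0.25, SE 0.0468, adjusted p = 0.000133), and Uqcrc1, a core protein, was higher in the pleura (0.31, SE 0.0994, adjusted p = 0.0126).

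Other mitochondrial genes were read from lists drawn up by function. For the site difference in AB1, where 12.3% of all genes were higher and 10.7% lower, 6 of 38 assembly factors and related proteins were higher and 1 lower (median 0.06), among them Coa3 (0.31, adjusted p = 0.00441) and Cox19 (0.32, adjusted p = 0.0149), which serve complex IV, and Foxred1 (-0.24, adjusted p = 0.00225), which serves complex I. Of 14 genes of the tricarboxylic acid cycle 4 were higher (median 0.14), with Ogdh (0.47, SE 0.105, adjusted p = 0.00381) and Idh2 (0.43, SE 0.0854, adjusted p = 0.00162) the largest. Of 67 mitochondrial ribosomal proteins 3 were higher (median 0.07), and of 25 genes that express and maintain mitochondrial DNA 2 were (median -0.05). Of 15 regulators 2 were higher (median -0.07), led by Prkaa2, the AMP-activated kinase subunit abundant in muscle (3.39, SE 0.629, adjusted p = 0.000944). In AE17, no gene of these lists passed apart from Mrps6 (-0.65, adjusted p = 0.0227) and Mrpl20 (-0.41, adjusted p = 0.0427). Apart from Prkaa2, each of these differences was below 1 on the log2 scale.

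Between the models, the lists moved in both directions. Each count is to be read against the 31.2% of all genes called higher and 32.5% lower under the skin, and 30.5% and 28.6% in the pleura. Of 67 ribosomal proteins, 19 were higher and 27 lower in AB1 under the skin and 24 higher and 19 lower in the pleura, Mrpl23 having 1.06 at both sites (SE 0.0422 and 0.0893). Of the 38 assembly genes, 9 were higher and 15 lower under the skin and 14 higher and 11 lower in the pleura. Of the 25 genes of mitochondrial DNA, 7 were higher and 8 lower and then 8 higher and 5 lower, led by Mgme1, a nuclease of mitochondrial DNA (1.34, SE 0.0815, and 1.30, SE 0.104). Of the 14 tricarboxylic acid cycle genes 5 were higher and 3 lower under the skin and 9 higher and 1 lower in the pleura. Of the 15 regulators 3 were higher and 4 lower under the skin and 5 higher and 3 lower in the pleura. The summed regulators were lower in AB1, without overlap, at 648 to 757 against 793 to 1018 CPM under the skin and 611 to 778 against 821 to 1024 CPM in the pleura. Single regulators went both ways. Ppargc1a, the coactivator PGC-1α that raises mitochondrial genes, ranged from 2.04 to 5.20 CPM in AB1 SC and 0 to 0.881 CPM in AE17 SC tumors, without overlap, and from 1.56 to 5.71 CPM in AB1 IPL and 0 to 4.21 CPM in AE17 IPL tumors. Its log2 differences were 3.43 (SE 0.464, adjusted p = 5.16e-06) and 2.75 (SE 0.808, adjusted p = 0.00738). Myc, a growth regulator that also acts on mitochondrial genes, was lower in AB1 (-1.36, SE 0.0877, adjusted p = 3.34e-10, and -1.69, SE 0.154, adjusted p = 4.85e-08), and so was Ppard, a lipid-sensing nuclear receptor (-1.13, SE 0.0623, and -1.03, SE 0.0931). Tfam, the packaging factor of mitochondrial DNA, did not pass at either site (0.12, adjusted p = 0.0572, and -0.09, adjusted p = 0.413).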

How the data were processed

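Polyadenylated RNA of 32 tumors was sequenced (50 base single-end reads). Per the labels and methods, the authors used bcl2fastq 1.8.4, HISAT2 2.0.4 and SummerizeOverlaps, and deposited gene counts without normalization. The mouse build is named mm11 in the methods. Coordinates here are from GENCODE M21 on GRCm38, which matched 39495 of 39676 identifiers. Groups came from sample titles and lanes from column names. No pair of libraries within a group was as alike as counting noise allows (chi-square over degrees of freedom of at least 5.56).

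Counts were tested in R 4.3.3 with edgeR 4.0.16 (filterByExpr, TMM, robust two-sided quasi-likelihood test, Benjamini-Hochberg adjustment over all genes tested, threshold 0.05), and with DESeq2 1.42.0 as an alternative. SE is the log2 fold change divided by the square root of the F statistic. The interaction is the AB1 minus the AE17 site effect. The members and lists were chosen with earlier results of these data known. Full values are given for isoform pairs, for the c-subunit genes, and for up to 3 genes per complex and comparison with the largest change past the threshold. At most 4 genes per other list are named, and Ndufc2, Tfam, Mrps6, Mrpl20, Ndufb10 in AB1, and the other complex II genes were added after their values were seen. Promoter sequences are from RefSeq. Alternatives were other scalings, filters, thresholds, GC and length corrections in 20 classes, lanes, tissue scores, a replicate block and fits without single libraries.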

Additional observations from a re-analysis of the deposited data

Results flagged for a closer look

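In 11 of 156 sets of 8 values, 1 mouse lay far from the others, where chance alone gives about 1 in 20 sets. AE17 IPL replicate 5 was high for Cox8b (10.88 CPM) and Cox7a1 (4.808 CPM). AE17 SC replicate 8 was high for Atp5g1 (111 CPM), Uqcrc1 (196.4 CPM) and Ndufs6 (32.83 CPM), and AE17 SC replicate 6 was low for Ndufs7 (39.71 CPM). AB1 IPL replicate 4 was high for Atp5g2 (345.6 CPM) and Ndufa13 (135.4 CPM), and AE17 IPL replicate 6 for Ndufa13 (87.96 CPM). AB1 SC replicate 6 was high for Cox6c (306.8 CPM), and AB1 SC replicate 8 was low for the sum of complex I (1858 CPM).

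The site effect differed between AB1 and AE17, by the interaction test, for Cox6a2 (2.756 on the log2 scale), Ndufb2 (0.4501), Ndufb10 (0.4296), Sdhb (0.3619), Ndufv1 (0.3347), Atp5c1 (0.2563), Atp5k (0.2424), Cox7c (0.2372) and Sdha (0.1851), each more positive in AB1.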

How the results depend on the processing

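In the comparison IPL against SC in AB1, 7 of 71 genes passed. The number was 4 at an adjusted p under 0.01, 13 with DESeq2, 13 with total counts, 17 with length offsets, 0 with the lane as a covariate, 0 within lane 3, 0 with the tissue scores, and between 5 and 17 with 1 mouse left out (17 without AB1 IPL replicate 5). Of all genes, 0.731% were higher with the lane, 0.0625% within lane 3 and 1.03% with the tissue scores, against 12.3%. All calls were higher in IPL except Ndufc2, lower without AB1 IPL replicate 4 (-0.20, adjusted p = 0.0247) and without replicates 2 and 4. In the comparison IPL against SC in AE17, 1 gene passed. The number was 0 at an adjusted p under 0.01, with DESeq2's size factors, without a filter, with at least 10 counts in every library, with length offsets, with the lane as a covariate, within lane 1 and with the tissue scores, 2 with DESeq2, and 0 to 6 with 1 mouse left out. Of all 14668 genes, 0 were higher and 1 lower with the lane, and 0 passed with the tissue scores. For the interaction of model and site, 9 genes passed, against 2 at an adjusted p under 0.01, 5 without a filter, 15 with length offsets, 0 with the lane, 1 with the tissue scores and 6 to 16 with 1 mouse left out. Of all genes, 0.376% were higher with the lane and 2.75% with the tissue scores, against 11.9%. Cox6a2 in AB1 was -0.32 with the tissue scores, against 2.97. The cause of these moves was not tested. Between the models, the total number of genes called stayed within 1.5 times (37 to 45 under the skin, 38 to 52 in the pleura), but the number lower in AB1 in the pleura was 9 with length offsets and 7 without the libraries that stand apart, against 4, and the median under the skin was 0.03 with length offsets and 0.13 with total counts, against 0.06. Lane and tissue scores were not run there. The fits without the libraries that stand apart were chosen after seeing the data.

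Residuals of same-numbered mice correlated between -0.31 and 0.0535 in AB1 and between -0.278 and 0.276 in AE17. Differently numbered mice were not compared, so whether the replicate numbers pair the mice was not tested. With the replicate block 4 genes passed in AB1, 0 in AE17 and 5 in the interaction.

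Averaging log2 levels in place of summing CPM moved complex IV from 0.10 to 0.53 (AB1 IPL against SC), from 0.34 to 0.10 (AB1 against AE17, skin) and from 0.48 to 0.71 (pleura) and complex II from -0.20 to -0.0739 (skin), and, by less than the larger SD of the groups compared, complex II from -0.01 to 0.13 (pleura), which turns its direction, complex V from 0.20 to 0.11 (skin) and complex III from 0.05 to 0.08 (skin). Without Cox6a2, Cox7a1 and Cox8b, complex IV moved from 0.07 to 0.04 (AB1 IPL against SC), from 0.34 to 0.17 (AB1 against AE17, skin) and from 0.45 to 0.32 (pleura). TMM factors without mitochondrial genes were not run, as none were in the table. A gene near 1 CPM had few counts (Cox8b between 0 and 19 in AB1 SC tumors), which limits its fold change.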
